A study of Caenorhabditis elegans with 7 samples.

Results

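The genes described here are 53 genes of Caenorhabditis elegans from a 12 h course at 30 °C. Their ratio was near its starting value in the mean of 2 h and 4 h, though not on each of these arrays. It was low in the mean of 10 h and 12 h. The 53 genes were taken from 5315 named genes with a value on all 7 arrays, out of 7534 genes on named probes. The choice used the measured ratios: the mean of the 2 h and 4 h arrays lay less than 0.5 log2 units from the 0 h array, and the mean of the 10 h and 12 h arrays lay at least 1.2 log2 units below it. These differences are called the early and the late difference below. Of the 58 genes that met the limits, 5 were left out by name, namely cest-8, pfas-1, C55A6.3, Y43C5A.3 and Y73F4A.3. A further 95 unnamed probes met the same limits.

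Total RNA of adult CF512 animals was hybridised to 7 two-colour arrays against a common reference RNA named HS1. CF512 is a strain that is sterile at 25 °C, through temperature-sensitive mutations in fer-15 and fem-1, and its adults then produce no progeny. All animals grew to adulthood at 25 °C and were then held at 30 °C for 0, 2, 4, 6, 8, 10 or 12 h, and the 0 h animals are the unheated baseline, which carries the same strain background as every heated sample. The series has no array of animals kept at 25 °C for the same hours. Heat and elapsed time therefore cannot be told apart in any difference from 0 h. Each time point has 1 array, so no value has a replicate error and no difference between single arrays can be tested. Whole animals were extracted, and in such bulk RNA fewer cells of a type and less RNA per cell cannot be told apart.

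In worms as in other animals, a rise in temperature first drives transcription of chaperone genes through heat shock factor, and these messages often decline again while the heat continues. A message becomes scarce when its synthesis drops, when it is degraded faster, or when the cells that hold it are lost, and an array ratio does not separate these routes. Sterile adult worms still turn over messages of tissues that include the intestine, the cuticle-forming tissue, muscle, neurons and somatic gonad. Prolonged heat can kill the animals.

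Each value is a log ratio of worm RNA to the reference, centred on the median of its array. The base is taken as 2 from the range of the values. No source used here says which sample is the numerator. The direction was set from F44E5.4 and F44E5.5, a pair of very similar HSP70 chaperone genes that respond to heat, whose ratio was -4.98 for both at 0 h, at the limit of the file, and 0.91 and 0.83 at 2 h. If the direction were the opposite, every low value below would be high. The arrays carry 16143 to 16972 values each. The 0 h array stands apart from the others, with a standard deviation of 0.634 over probes against 0.497 to 0.585 on the heated arrays, and with a correlation over probes that went from 0.234 with the 2 h array to -0.212 with the 12 h array. Every difference from baseline rests on that array.

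Over the 53 genes, the median ratio was 0.60 at 0 h, 0.49 at 2 h, 0.19 at 4 h, -0.22 at 6 h, -0.47 at 8 h, -0.87 at 10 h and -1.07 at 12 h. The ratio was above 0 for 51 of the genes at 0 h and for 1 at 12 h, beside 48.8% and 52.7% of all features. The medians over all 13369 features lay between -0.01 and 0.03 on the 7 arrays. The median late difference of the members was -1.43 (range -3.04 to -1.202), and the median early difference was -0.29 (range -0.50 to 0.31). These figures follow from the choice and are a description. The early difference was negative for 46 of the 53. That share was not counted over all features, so nothing is read from it.

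**Figure D1:**
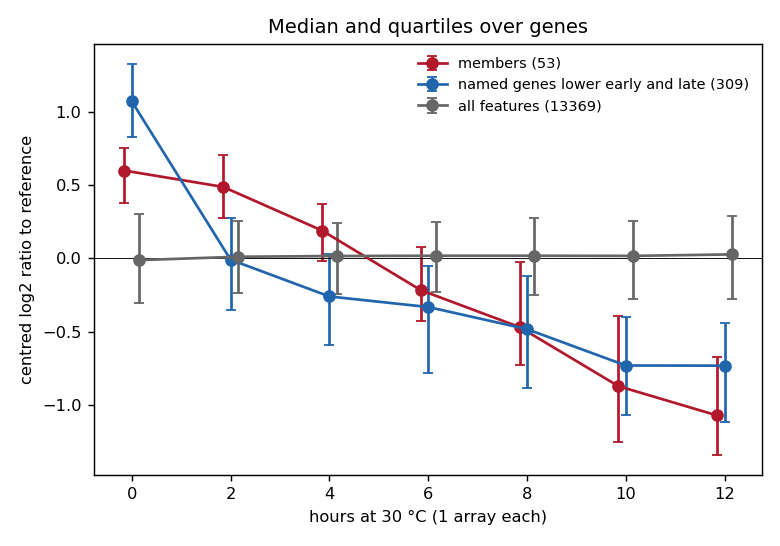
Median centred log2 ratio (points) with quartiles over genes (bars) at each time at 30 °C for the 53 members, for 309 named genes that were lower both early and late, and for all 13369 features, with 1 array per time. The members go from 0.60 at 0 h to -1.07 at 12 h, while the 309 genes lie near 0 already at 2 h.

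The profiles of many of these genes were not flat until late. The counts here use arrays that also chose the genes, so they describe the members and nothing is read from them against the background. The ratio was lower at 4 h than at 2 h in 40 of the 53 genes, beside 50.9% of all features, and 40 stood below both the 0 h and the 2 h array at 4 h, beside 33.3%. Of the 53, 21 were more than 0.5 log2 units below 0 h on that array, beside 19.2% of all features. The 2 h value was above the 0 h value in 20 genes, beside 7217 of all 13369 features. The early mean averages the 2 h value with the 4 h value. At 6 h, 35 genes were below all of 0, 2 and 4 h, beside 24.1% of all features, and at 8 h 41 were, beside 25.9%. A ratio 1 log2 unit or more below 0 h was found in 17 members at 6 h, beside 7.63% of all features, and in 28 at 8 h, beside 8.34%. The median gene had covered 53.1% of its late difference at 6 h and 63.9% at 8 h. The set is therefore called late-low genes here. The name says that the mean of 10 h and 12 h was low and nothing about when the decline begins. The lowest single value lay at 6 h in C10A4.4 and C10E2.2, and in the probe average at 8 h in C24H11.2. The 8 h value of C24H11.2 came from 1 of its 2 probes, and that probe was lower at 12 h (-1.447) than at 8 h (-1.321).

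The 6 h and 8 h arrays did not enter the choice, except that a value was needed on each. Their difference is the one contrast that shares no array with it. The ratio was lower at 8 h than at 6 h in 38 of the 53 genes (71.7%), while 50.3% of all 13369 features were lower. The median difference was -0.25 for the members and 0.00 for all features, whose quartiles were -0.24 and 0.26. A drop of 1 log2 unit or more, which is a fold of 2 if the base is 2, was seen in 4 members (7.55%) and in 1.4% of all features. A rise of that size was seen in 0 members and in 2.18% of all features. With 1 array at each time these shares have no test, and the genes of one array are not replicates.

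**Figure D2:**
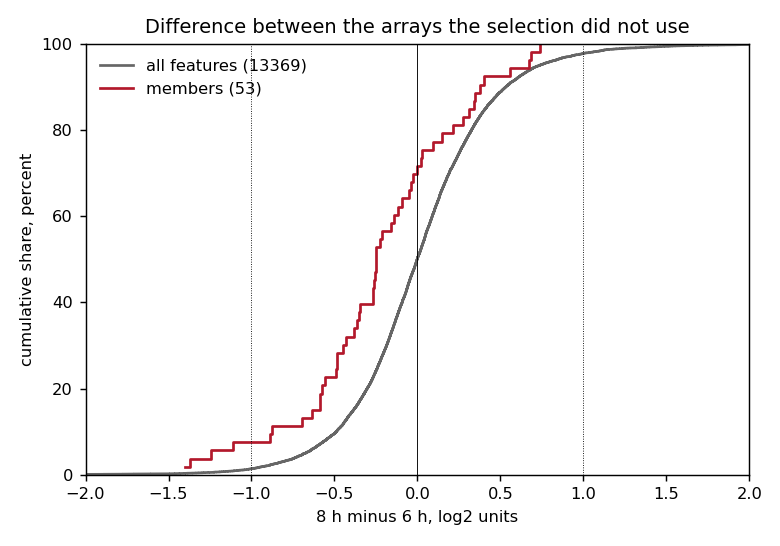
Cumulative share (percent) of features against the 8 h minus 6 h difference in log2 units, for the 53 members and for all 13369 features, with dotted lines at 1 log2 unit either way. The members' curve lies to the left, with 71.7% below 0 against 50.3%.

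The 4 members with the lowest 8 h minus 6 h difference were C24H11.2 (-1.40), T19H12.3 (-1.37), F07C6.3 (-1.24) and C24A3.2 (-1.11). The value of C24H11.2 is not a measured change. This gene has 2 probes, and its 6 h value came from one of them (0.08) and its 8 h value from the other (-1.32), because the probes had values on 4 and 6 arrays and only 3 in common. Where probes were kept only with a value on every array, 52 of the 53 genes were measured, 71.2% were lower at 8 h and 3 were lower by 1 log2 unit or more. K08H2.7 (-0.89) and W02G9.4 (-0.87) came next. At the other end stood F02C12.1 (0.74), Y51A2B.4 (0.69), C13A2.2 (0.67) and F47G9.4 (0.56), which were higher at 8 h than at 6 h.

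Genes that were already low early gave a point of comparison. There were 309 named genes with an early difference of -0.5 or less and a late difference within the same limit of -1.2. Their median was 1.07 before heating, -0.01 at 2 h and -0.73 at 12 h. Between 6 h and 8 h, 59.9% of them were lower, with a median difference of -0.13. The difference between these genes and the late-low genes was not tested.

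The 53 genes were grouped by the time from which a gene stayed at or below the midpoint between its 0 h ratio and its late mean. The grouping was made after the values were seen and is a description. The midpoint was passed for good at 4 h by 6 genes, at 6 h by 15, at 8 h by 9, at 10 h by 15 and at 12 h by 6. It was never passed for good by 2. The steepest drop between neighbouring arrays lay in 2 to 4 h for 9 genes, 4 to 6 h for 12, 6 to 8 h for 4, 8 to 10 h for 14 and 10 to 12 h for 14, and in the first 2 h for 0. The midpoint and step counts use arrays that also chose the genes. They were not made over all features, so nothing is read from them. One of the 4 genes from 6 to 8 h is C24H11.2, whose values at those times come from different probes.

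**Figure D3:**
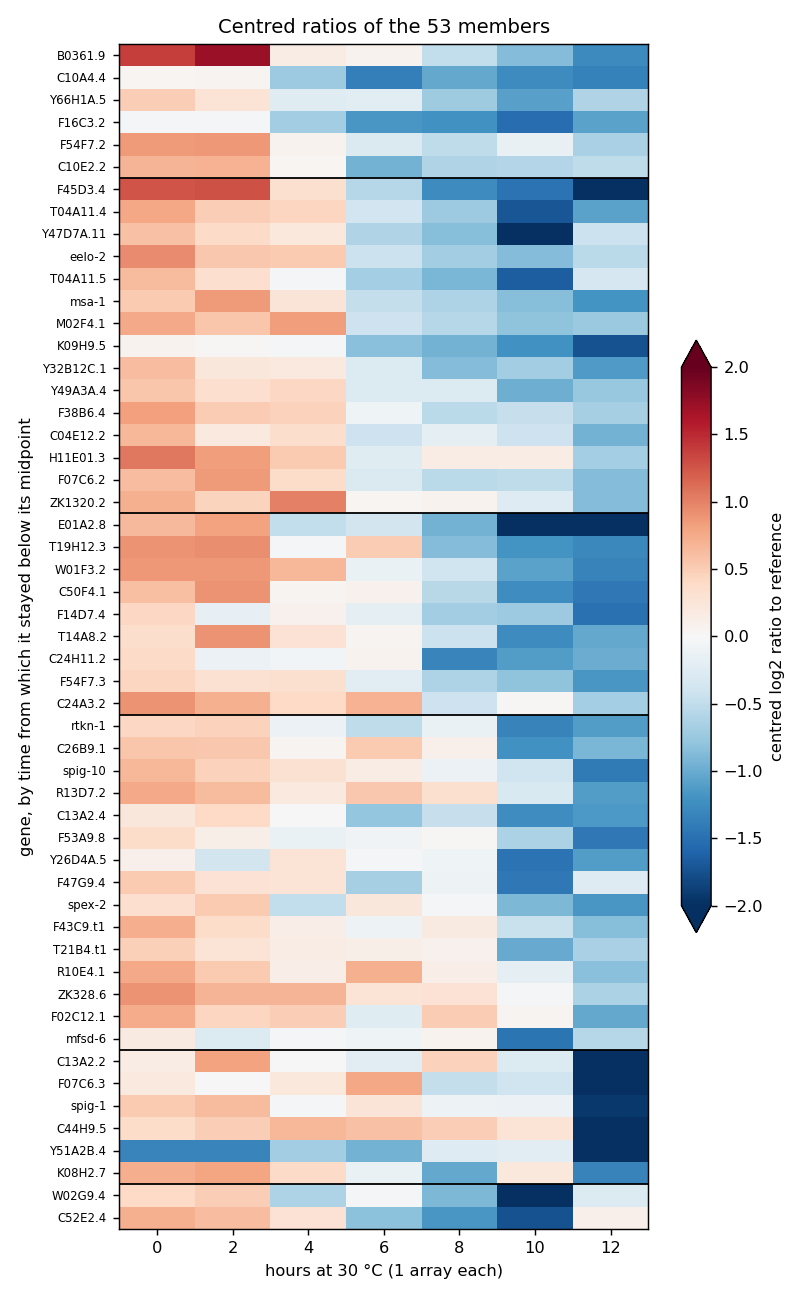
Centred log2 ratio (colour, cut at -2 and 2) of the 53 members on the arrays at 0 to 12 h, 1 array per column. Black lines separate genes that stayed below their midpoint from 4, 6, 8, 10 and 12 h, and the last 2 that did not. Rows are ordered by that time, taken from these same values, so the later turn to blue from group to group follows from the order. Y51A2B.4, which starts low, and the last 2 genes depart from it.

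The first group, low from 4 h, held B0361.9, C10A4.4, Y66H1A.5, F16C3.2, F54F7.2 and C10E2.2. B0361.9 stood at 1.39 at 0 h, 1.73 at 2 h, 0.14 at 4 h, 0.07 at 6 h, -0.49 at 8 h, -0.87 at 10 h and -1.28 at 12 h. It had the highest ratio of all 53 genes at 2 h, and its steepest step was that from 2 to 4 h. C10A4.4 and F16C3.2 were chosen after their values were seen. C10A4.4 stood at 0.04 at 0 h, 0.06 at 2 h, -0.73 at 4 h, -1.37 at 6 h, -1.02 at 8 h, -1.26 at 10 h and -1.35 at 12 h. Its 6 h value was the lowest among the members, and its 12 h value was no lower. C10E2.2 stood at 0.67 at 0 h, 0.69 at 2 h, 0.04 at 4 h, -0.95 at 6 h, -0.61 at 8 h, -0.58 at 10 h and -0.50 at 12 h, again with its lowest value at 6 h. F16C3.2 read -0.04 at 0 h, -0.02 at 2 h, -0.69 at 4 h, -1.16 at 6 h, -1.21 at 8 h, -1.53 at 10 h and -1.07 at 12 h. For C10A4.4, C10E2.2 and F16C3.2 most of the late difference was thus present by 6 h.

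Among the 15 genes low from 6 h, F45D3.4 had the lowest late difference of all (-3.04). Its ratio was 1.25 at 0 h, 1.28 at 2 h, 0.32 at 4 h, -0.57 at 6 h, -1.27 at 8 h, -1.47 at 10 h and -2.10 at 12 h. Values at 6 h and later lay below each of the first 3, and each array from 4 h on was lower than the one before. eelo-2 stood at 0.94 at 0 h, 0.54 at 2 h, 0.53 at 4 h, -0.43 at 6 h, -0.70 at 8 h, -0.87 at 10 h and -0.54 at 12 h, so that it was at its late mean by 8 h. msa-1 was measured at 0.52 at 0 h, 0.86 at 2 h, 0.26 at 4 h, -0.48 at 6 h, -0.62 at 8 h, -0.85 at 10 h and -1.197 at 12 h, with its highest value at 2 h and a lower value on each array from there. M02F4.1, chosen after its values were seen, read 0.76 at 0 h, 0.55 at 2 h, 0.84 at 4 h, -0.41 at 6 h, -0.57 at 8 h, -0.80 at 10 h and -0.75 at 12 h. It held between 0.55 and 0.84 through 4 h and then took a single step of -1.25 to 6 h. K09H9.5, also chosen after its values were seen, stood at 0.06 at 0 h, 0.03 at 2 h, -0.03 at 4 h, -0.83 at 6 h, -0.95 at 8 h, -1.204 at 10 h and -1.74 at 12 h. Its first 3 values lay within 0.1 log2 units of each other, and its later 4 were below -0.8. Y47D7A.11 read 0.58 at 0 h, 0.38 at 2 h, 0.22 at 4 h, -0.60 at 6 h, -0.86 at 8 h, -2.04 at 10 h and -0.43 at 12 h. Its low value at 10 h was not repeated at 12 h. The group also held T04A11.4, T04A11.5, F07C6.2, Y32B12C.1, Y49A3A.4, F38B6.4, C04E12.2, H11E01.3 and ZK1320.2. H11E01.3, chosen after its values were seen, was back above 0 at 8 h and 10 h (0.15 on both) before -0.67 at 12 h.

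Low from 8 h were E01A2.8, T19H12.3, W01F3.2, C50F4.1, F14D7.4, T14A8.2, C24H11.2, F54F7.3 and C24A3.2, of which F14D7.4 is a pseudogene in the reference. C24H11.2 met the limits only with its probes averaged, and its place in this group rests on that average. E01A2.8 stood at 0.65 at 0 h, 0.80 at 2 h, -0.50 at 4 h, -0.37 at 6 h, -0.95 at 8 h, -2.02 at 10 h and -2.73 at 12 h. Its drop came in separate steps, from 2 to 4 h and again after 6 h, and its 12 h ratio was the second lowest of the genes with no value at the limit of the file, after C13A2.2. T19H12.3 read 0.90 at 0 h, 0.92 at 2 h, -0.02 at 4 h, 0.51 at 6 h, -0.87 at 8 h, -1.19 at 10 h and -1.29 at 12 h. The 6 h value was above the 4 h value, and all values from 8 h on were below both. W01F3.2 stood at 0.87 at 0 h, 0.87 at 2 h, 0.67 at 4 h, -0.13 at 6 h, -0.39 at 8 h, -1.08 at 10 h and -1.34 at 12 h, with a first value below 0 at 6 h. C50F4.1 was measured at 0.60 at 0 h, 0.90 at 2 h, 0.06 at 4 h, 0.08 at 6 h, -0.55 at 8 h, -1.24 at 10 h and -1.43 at 12 h. Of these, W01F3.2 had the smallest early difference (-0.10), and C50F4.1 was close to it (-0.12). C24A3.2 read 0.90 at 0 h, 0.71 at 2 h, 0.39 at 4 h, 0.70 at 6 h, -0.41 at 8 h, 0.03 at 10 h and -0.68 at 12 h. Its 10 h value was above its 8 h value, so the order of its later arrays is not monotone.

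The 15 genes low from 10 h include the symbol-bearing genes rtkn-1, spig-10, spex-2 and mfsd-6. rtkn-1 stood at 0.41 at 0 h, 0.45 at 2 h, -0.11 at 4 h, -0.51 at 6 h, -0.13 at 8 h, -1.34 at 10 h and -1.11 at 12 h, and both late values were below all earlier ones. mfsd-6 is named for the major facilitator superfamily, a large family of membrane transporters. Its ratio was 0.19 at 0 h, -0.27 at 2 h, -0.04 at 4 h, -0.08 at 6 h, 0.07 at 8 h, -1.46 at 10 h and -0.58 at 12 h, so that 1 step of -1.53 from 8 to 10 h made up its late difference (-1.202), the one nearest the limit. spex-2 read 0.34 at 0 h, 0.52 at 2 h, -0.50 at 4 h, 0.22 at 6 h, -0.03 at 8 h, -0.90 at 10 h and -1.17 at 12 h, with a dip at 4 h as well. Y26D4A.5, chosen after its values were seen, resembled mfsd-6 in standing between -0.37 and 0.27 up to 8 h, and then at -1.47 and -1.11 on the late arrays. C26B9.1, chosen in the same way, stood at 0.53 at 6 h and 0.10 at 8 h, and then at -1.22 and -0.91. In both, the 8 h value was within the range of the first 4 arrays and both late values were below that range. F47G9.4 stood at 0.53 at 0 h, 0.30 at 2 h, 0.27 at 4 h, -0.66 at 6 h, -0.10 at 8 h, -1.43 at 10 h and -0.26 at 12 h. F02C12.1 read 0.74 at 0 h, 0.44 at 2 h, 0.49 at 4 h, -0.24 at 6 h, 0.50 at 8 h, 0.06 at 10 h and -1.02 at 12 h. In both, 8 h lay above 6 h and the late arrays differed by over 1 log2 unit.

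Among the genes low from 10 h are also both tRNA genes of the set, F43C9.t1 and T21B4.t1. F43C9.t1 stood at 0.72 at 0 h, 0.37 at 2 h, 0.14 at 4 h, -0.10 at 6 h, 0.17 at 8 h, -0.45 at 10 h and -0.85 at 12 h, and T21B4.t1 at 0.48 at 0 h, 0.27 at 2 h, 0.15 at 4 h, 0.11 at 6 h, 0.09 at 8 h, -1.01 at 10 h and -0.64 at 12 h. The genes were chosen for mention after their values were seen. Whether these probes detect the mature tRNA, its precursor or an overlapping transcript is unknown, since the probe sequences were not used here. The remaining members of this group were R13D7.2, C13A2.4, F53A9.8, R10E4.1 and ZK328.6.

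The midpoint was passed for good only at 12 h by C13A2.2, F07C6.3, spig-1, C44H9.5, Y51A2B.4 and K08H2.7. Y51A2B.4 stood at -1.32 at 0 h, -1.33 at 2 h, -0.69 at 4 h, -0.94 at 6 h, -0.26 at 8 h, -0.23 at 10 h and -5.06 at 12 h. Its 12 h value is the lower limit of the file before centring, and without the 12 h array its late difference would be 1.09 in place of -1.32, the one sign that turned among the members when an array was left out. It also differs from the rest in having started far below 0. The pseudogene C13A2.2 stood at 0.14 at 0 h, 0.81 at 2 h, -0.01 at 4 h, -0.22 at 6 h, 0.46 at 8 h, -0.27 at 10 h and -2.91 at 12 h, and C44H9.5, chosen after its values were seen, read 0.37 at 0 h, 0.49 at 2 h, 0.67 at 4 h, 0.59 at 6 h, 0.50 at 8 h, 0.27 at 10 h and -2.47 at 12 h. In C44H9.5 the first 6 arrays spanned 0.27 to 0.67, and the last alone was low. spig-1 read 0.52 at 0 h, 0.63 at 2 h, -0.02 at 4 h, 0.26 at 6 h, -0.11 at 8 h, -0.12 at 10 h and -1.92 at 12 h. K08H2.7 stood at 0.73 at 0 h, 0.79 at 2 h, 0.39 at 4 h, -0.13 at 6 h, -1.02 at 8 h, 0.22 at 10 h and -1.33 at 12 h, with a return above 0 at 10 h between low values. For all 6 genes the membership rests on 1 array.

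W02G9.4 and C52E2.4 are the reverse case. W02G9.4 stood at 0.40 at 0 h, 0.50 at 2 h, -0.62 at 4 h, -0.03 at 6 h, -0.91 at 8 h, -2.53 at 10 h and -0.27 at 12 h. C52E2.4 stood at 0.71 at 0 h, 0.62 at 2 h, 0.29 at 4 h, -0.82 at 6 h, -1.17 at 8 h, -1.75 at 10 h and 0.10 at 12 h. Its values are averages of 2 probes, which stood at 0.298 and 1.115 at 0 h and at -1.097 and -2.397 at 10 h. With probes kept single, C52E2.4 did not meet the limits. Both genes were lowest at 10 h and well above that level at 12 h, and neither gene stayed below its midpoint.

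The late pair was thus uneven over the set. Both late arrays were below 0 h in 52 of 53 genes, Y51A2B.4 being the exception, beside 35.8% of all features. In 51 both late values lay below all of 0, 2 and 4 h, beside 15.3%. The choice used all of these arrays. A difference of -1.2 or less was reached on both late arrays by 23 genes, on the 10 h array alone by 10 and on the 12 h array alone by 20. The late values lay over 1 log2 unit apart in 13 genes, with 12 h lower in 8 and 10 h lower in 5. Over all features 12 h was lower than 10 h by that amount in 2.75% and higher in 2.88%. At any size, 12 h was the lower in 33 of the 53 members and in 47.6% of all features. The median absolute difference between the late arrays was 0.53 for the members and 0.28 for all features. Since the choice used the mean of these arrays, a gene with 1 very low value could enter by it, and nothing is read from that contrast.

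**Figure D4:**
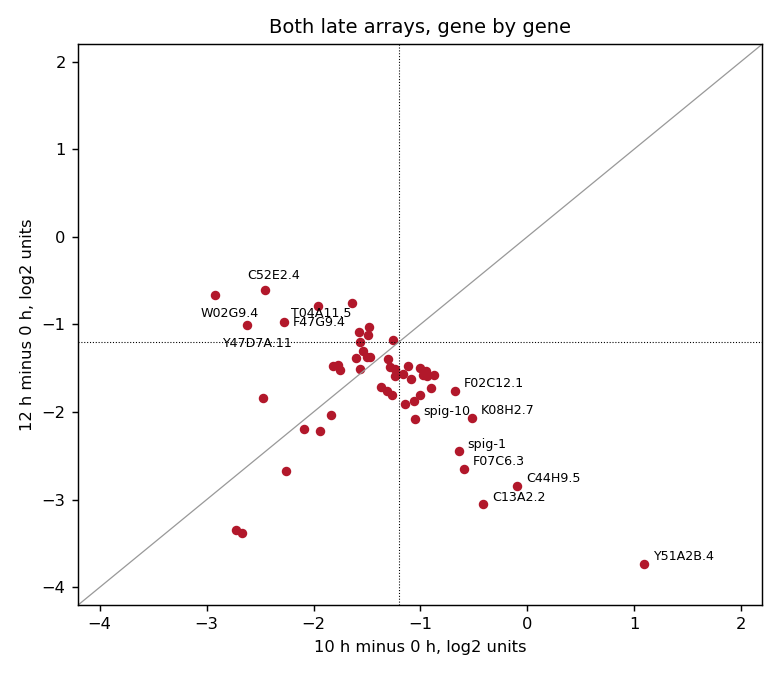
12 h minus 0 h against 10 h minus 0 h (log2 units) for the 53 members, 1 point per gene, with dotted lines at -1.2 and the line of equality in grey. The 13 genes whose late values lie over 1 log2 unit apart are named, and Y51A2B.4 alone lies above 0 on the horizontal axis.

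In the WBcel235 gene order, T04A11.4 lies next to T04A11.5 and F07C6.2 next to F07C6.3, among protein-coding genes and pseudogenes. T04A11.4 stood at 0.77 at 0 h, 0.49 at 2 h, 0.43 at 4 h, -0.38 at 6 h, -0.73 at 8 h, -1.71 at 10 h and -1.07 at 12 h, and T04A11.5 at 0.63 at 0 h, 0.34 at 2 h, -0.04 at 4 h, -0.67 at 6 h, -0.92 at 8 h, -1.65 at 10 h and -0.34 at 12 h. Both were lower on each array from 2 h to 10 h than on the one before, and higher at 12 h than at 10 h. Each has 2 probes, and the 12 h values of T04A11.4 were -0.44 on one and -1.70 on the other. T04A11.5 had a 12 h value on 1 of its probes only (-0.34), and the other stood at -2.37 at 10 h, so that the average at 12 h comes from another set of probes than at 10 h. With probes kept single, T04A11.5 did not meet the limits. Whether the probes of these neighbours detect one gene or both is unknown without their sequences.

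F07C6.2 stood at 0.61 at 0 h, 0.86 at 2 h, 0.37 at 4 h, -0.28 at 6 h, -0.54 at 8 h, -0.50 at 10 h and -0.86 at 12 h, and F07C6.3 at 0.20 at 0 h, 0.002 at 2 h, 0.22 at 4 h, 0.77 at 6 h, -0.47 at 8 h, -0.40 at 10 h and -2.45 at 12 h. F07C6.3 was the higher of these ratios at 6 h and by far the lower at 12 h, so adjacent position did not come with a shared profile here. Pairs a little further apart were chosen after their values were seen. C13A2.2 and C13A2.4 are separated by 2 genes, C13A2.3 and C13A2.11, both measured, with late differences of -0.20 and -0.49. C13A2.4 stood at 0.22 at 0 h, 0.39 at 2 h, -0.002 at 4 h, -0.77 at 6 h, -0.46 at 8 h, -1.25 at 10 h and -1.15 at 12 h, low on both late arrays, unlike C13A2.2. F54F7.2 and F54F7.3 are also separated by 2 genes, of which 0 were measured. F54F7.2 read 0.85 at 0 h, 0.86 at 2 h, 0.07 at 4 h, -0.29 at 6 h, -0.52 at 8 h, -0.15 at 10 h and -0.64 at 12 h, and F54F7.3 0.44 at 0 h, 0.31 at 2 h, 0.33 at 4 h, -0.23 at 6 h, -0.61 at 8 h, -0.80 at 10 h and -1.16 at 12 h. Both passed below 0 at 6 h. Next to members lay 25 measured genes that are no members. Of these, 13 had a late difference below 0 and 2 reached -1.2, with a median of -0.08, while 7.14% of all features reached -1.2 and their median was 0.06.

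**Figure D5:**
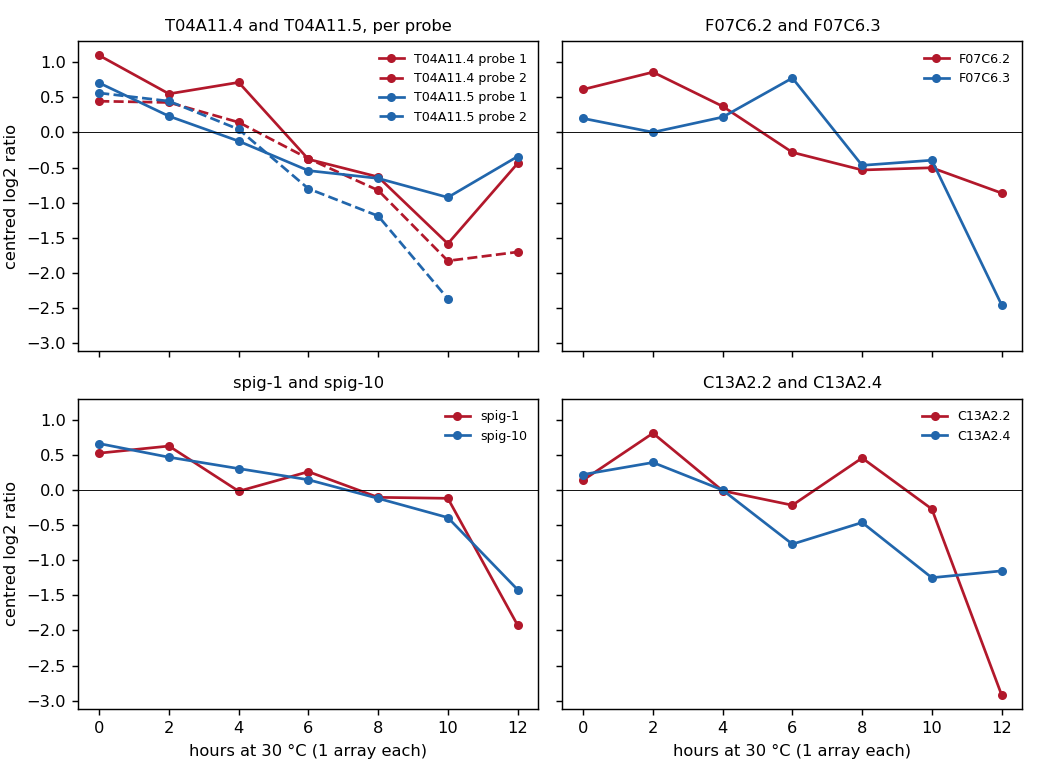
Centred log2 ratio against hours at 30 °C for neighbouring or related members, with 1 array per time. T04A11.4 and T04A11.5 are shown per probe (solid and dashed), the other genes by their single probe. All 4 T04A11 probes are lower at 10 h than at 8 h, and they span -0.93 to -2.37 at 10 h, and F07C6.3 lies above F07C6.2 at 6 h and far below it at 12 h.

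spig-1 and spig-10 share a family symbol and lie in the same part of the gene order, with 11 genes between them, of which 3 were measured, with late differences of -0.21 to -0.52. spig-10 stood at 0.66 at 0 h, 0.47 at 2 h, 0.30 at 4 h, 0.15 at 6 h, -0.12 at 8 h, -0.39 at 10 h and -1.42 at 12 h. Like spig-1 it had its steepest drop from 10 to 12 h, and its ratio was lower on each array than on the one before. Of 14 spig genes on named probes, 10 were measured on all arrays, and the other 8 had late differences from -0.82 (spig-17) to 0.90 (spig-14). Of these, spig-9 and spig-13 also had their lowest ratio at 12 h, at -0.82 and -1.35. The family was looked at after the values were seen, and its median late difference was -0.30.

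mfsd-6 belongs to a list of solute carriers. Of its 43 genes on named probes 33 were measured on all arrays, with a median late difference of -0.08 beside 0.06 for all features. Their median 8 h minus 6 h difference was -0.21, and 23 of 33 were below 0, beside 50.3% of all features. In the linear trend over 0 to 12 h, limma called 2 of the 33 lower at an adjusted p under 0.05 and 0 higher, beside 3.63% of all features called lower. mfsd-6 was not among those called, with a fitted change of -0.98 (SE 0.45, 7 arrays).

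The mfsd genes within that list were looked at after the values were seen. Of 11 on named probes 7 were measured, with a median late difference of -0.86 and a median 8 h minus 6 h difference of -0.09, and limma called 1 of them lower and 0 higher. The late difference was -1.84 for mfsd-8.5 and -1.63 for mfsd-13.2, lower than that of mfsd-6, and 0.23 for mfsd-11 at the other end.

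Of the lists fixed for this work, solute carriers alone held a member. That is 1 of 33 measured genes, beside 53 of 5315 named genes, and nothing is read from it. The measured genes of the other lists numbered 17 for neuropeptides and their receptors, 5 for acyl-CoA and lipid enzymes, 3 each for glycosyl transferases and for defence genes, 2 for peptidases and 1 for F-box genes. Median late differences were -1.88 for the acyl-CoA, -1.69 for the peptidase and -0.78 for the defence list. They were -0.48 for the F-box, -0.05 for the neuropeptide and 0.10 for the glycosyl transferase list, beside 0.06 for all features. Limma called 1 gene lower in each of the acyl-CoA, glycosyl transferase and peptidase lists and 0 in the neuropeptide, defence and F-box lists. For cuticle, nuclear receptor, cytochrome P450, glutathione transferase and ion channel genes 0 were measured under a named probe. The same holds for the markers of intestine, germline, muscle, neurons, hypodermis and eggshell, so the tissue makeup of the samples could not be read from named genes. Of the sperm markers 3 were measured, with a median late difference of 0.05 and a median 8 h minus 6 h difference of -0.39.

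By gene type, 49 of the 53 are protein-coding, 2 are pseudogenes and 2 are tRNA genes. A sequence name is the only name of 46, and 7 carry a gene symbol. The same shares over all 5315 named genes were not counted, so no trait of the set is read from these counts. No role is given here to the genes known by sequence name alone. All but 4 were measured by a single probe. The 57 probes lie in 27 of the 32 print blocks of the array, with at most 6 in a block.

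The linear trend over 0 to 12 h was fitted with limma over all 13369 features and called 33 of the 53 lower at an adjusted p under 0.05, beside 3.63% of all features. The fit uses the arrays that chose the genes, and nothing is read from the count. Its standard errors serve as a measure of scatter about a line. F45D3.4 had a fitted change of -3.67 over 12 h (SE 0.31), W01F3.2 one of -2.48 (SE 0.28) and K09H9.5 one of -1.89 (SE 0.27), each over 7 arrays. The scatter was widest for Y51A2B.4 (-1.84, SE 1.42), C13A2.2 (-2.33, SE 0.84) and C44H9.5 (-1.95, SE 0.83), which are among the 6 genes that passed their midpoint for good at 12 h. The count was 11 without the 0 h array, beside 0.779% of all features, 17 without 2 h, beside 1.95%, and 18 without 10 h, beside 1.34%. It was 20 without 12 h, beside 2.02%, and 19 with quantile normalization, beside 1.94%.

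The members just inside the limit of the late difference were F02C12.1 (-1.22), C10E2.2 (-1.22) and mfsd-6 (-1.202), and just outside stood M28.8 (-1.198), Y2H9A.4 (-1.19) and W06G6.10 (-1.19). At the lower limit of the early difference E01A2.8 (-0.50), T04A11.5 (-0.48) and Y66H1A.5 (-0.48) were inside, while F49E12.10 (-0.50), Y51A2B.t1 (-0.51) and F11A5.9 (-0.51) were outside. At the upper limit the nearest members were Y51A2B.4 (0.31), C13A2.2 (0.26) and T14A8.2 (0.24), and ZC317.6 (0.63) was the 1 gene beyond it. At the late limit and the lower early limit, a small change in these values would move a gene across. The set therefore has no sharp edge on the side of the genes that were low earlier, while on the side of genes raised early it has a gap.

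Membership depended on single arrays. With the 4 h array left out of the early mean 92 genes met the limits, 50 of them members, and with the 2 h array left out 41 did, 31 of them members. With 10 h left out of the late mean 88 met them, 43 of them members, and with 12 h left out 49, 33 of them members. In all 4 of these cases 13 genes remained, and 7 remained under each of the 11 changes that alter normalization, probes, baseline or arrays. W01F3.2, msa-1, M02F4.1 and K09H9.5 met the limits under all 16 alternatives tried, including tighter limits of either difference.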

How the data were processed

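The deposited table holds 1 log ratio per probe and array, taken as log2 from the range of the values; the authors' scanner, normalization and filter, and the base and direction of the ratio, are not given in any source used here. The deposited values stop at -5 and 5, and 65 of 19200 probes reach a limit. GEO's platform annotation names 7900 probes, and 7872 of these matched the WBcel235 gene table by gene number, which was used only for names, types and gene order. Arrays were centred on their median and probes of a gene averaged where they had a value. Linear trends were fitted with limma 3.58.1 in R 4.3.3 over all features, with Benjamini-Hochberg adjustment. The fit was also run on simulated data with independent noise on each array. That setting may differ from a time course without replicates, so nothing is read from the run about the adjusted p. Other comparisons have no test. The members and lists were chosen with earlier results of these data known. Named genes are the 12 members with the lowest late difference, the 6 lowest and 4 highest for 8 h minus 6 h, those with a symbol, those next to another member, and those at the limits. Some genes were named as whole groups: those left out by name, those lacking a 6 h or 8 h value, and the members of each midpoint group. F44E5.4 and F44E5.5 served to set the direction. Most other genes are marked in the text as chosen after their values were seen. Promoter motifs and sequences were not analysed here. Alternatives were other centring and scaling, single probes, other limits and leaving out arrays.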

Additional observations from a re-analysis of the deposited data

How the results depend on the processing

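No paired analysis was possible because no time point has a second array. The number of arrays limits all precision, and the signal over background is unknown. Centring within print blocks and demanding a value from each probe on all 7 arrays were added after the data were seen. The share of members lower at 8 h than at 6 h was 69.8% to 72.7% under the 6 changes of normalization or probes. It was 67.0% with a late limit of -1 and 91.3% with one of -1.5. With these late limits, 8 of 94 and 2 of 23 genes were lower by 1 log2 unit or more, beside 1.4% of all features. The 53 members became 94 with a late limit of -1, 23 with -1.5, 26 with early limits of 0.3 and 103 with 0.75, and 41 to 92 with 1 array left out. Quantile normalization gave 57 genes, of which 29 were members, and 10 members lower by 1 log2 unit or more at 6 h than at 0 h in place of 17. The share of all features was not counted under that normalization, so nothing is read from the change. In the linear trend 33 members, beside 3.63% of all features, became 19, beside 1.94%, with quantile normalization and 11 to 30, beside 0.779% to 3.07%, with 1 array left out. The late difference of Y51A2B.4 was 1.09 from the 10 h array alone and -3.74 from the 12 h array alone. Fewer arrays enter these fits; the cause of the other shifts was not tested.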

Other observations

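The 95 unnamed probes that met the same limits had a median ratio of 0.61 at 0 h, 0.26 at 4 h, -0.15 at 6 h, -0.29 at 8 h and -0.90 at 12 h. Between 6 h and 8 h 69.5% of them were lower, with a median difference of -0.16, beside 50.3% of all features. They share their arrays with the named members and no probe.

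At 12 h, the probes of T04A11.4 and T04A11.5 in print block 11 stood at -0.44 and -0.34, while the T04A11.4 probe in block 9 stood at -1.70 and the T04A11.5 probe there had no value. At 10 h the probes in block 11 stood at -1.58 and -0.93, and those in block 9 at -1.83 and -2.37. Whether position on the slide plays a part was not tested.

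A further 5 named genes met the limits but lacked a value at 6 h or 8 h: K04A8.10 with a late difference of -2.17, F55B11.4 with -1.82, C08F11.3 with -1.43, F35F10.1 with -1.21 and C50B8.5 with -1.205. Of the 5 genes left out by name, Y73F4A.3 had a late difference of -2.24 and pfas-1, for a purine synthesis enzyme, one of -2.17. The ratio of pfas-1 was -0.10 at 6 h and -1.12 at 8 h, and that of Y43C5A.3 was 0.10 at 6 h and -0.91 at 8 h. C55A6.3 stood at -0.16 at 6 h and -0.90 at 8 h. Y73F4A.3 was nearly unchanged (-0.451 and -0.439), and cest-8 was higher at 8 h (-0.187) than at 6 h (-0.365).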
